A study of Mus musculus with 8 samples.

Results

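The genes of the DNA replication machinery were examined in whole subcutaneous tumors of MC38-OVA cells. These are mouse colon adenocarcinoma cells with ovalbumin added as a model antigen. The 4 shXBP1 tumors came from cells with a hairpin against Xbp1, whose product drives transcription in the unfolded protein response. The 4 shNT tumors came from cells labelled shNT. All 8 grew in female C57BL/6J mice that received no other labelled treatment, and the labels give neither the age of the mice nor the number of cell clones. The members are the entries whose KEGG annotation in the deposited table holds the DNA replication pathway (ko03030), 37 of 25766 entries. They comprise 35 protein-coding genes, 1 processed pseudogene (Pcna-ps2) and 1 locus without a gene name. RNA was taken from whole tumors, so each value sums cancer cells and host cells, and fewer cells of a type and less RNA per cell cannot be told apart.

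Before a cell divides it copies its genome once. The MCM2-7 ring is loaded at origins and unwinds DNA at the fork, polymerase alpha with its primase lays down short primers, and polymerases delta and epsilon extend them on the lagging and leading strand. The sliding clamp PCNA, opened by the clamp loader RFC, tethers the polymerases, and RPA coats the exposed single strand. FEN1, DNA2, ribonuclease H2 and DNA ligase 1 remove primers and join Okazaki fragments. Many of these genes are transcribed at the entry into S phase under E2F transcription factors, and their RNA is widely used as a sign of dividing cells.

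Total counts ranged from 29070605 to 36012997 per tumor, and the 35 coding members held between 445 and 15491 counts in a tumor. Xbp1 itself stood at 77.2, 76.0, 73.7 and 56.6 CPM (counts relative to the scaled library size) in shXBP1 tumors, against 97.3, 96.0, 102 and 109 CPM in shNT tumors, with no overlap (log2 fold change -0.51, adjusted p = 0.00255 in edgeR). Values per tumor are listed throughout in the order of tumors 1 to 4 of each group, and means carry the SD over the 4 tumors of a group. Of 8 markers of colon epithelium 5 lay below the filter on low counts, and Cdx2, a defining transcription factor of intestinal epithelium, had 0 counts in every tumor, which at the smallest depth allows up to 0.103 CPM (3 counts). The tumors showed little epithelial marker RNA, with a summed level of 7.65 to 11.2 CPM in shXBP1 and 5.74 to 7.97 CPM in shNT tumors.

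A large minority of the DNA replication genes fell in shXBP1 tumors, by modest amounts, and the decreases were spread over the helicase, all 3 polymerases and the enzymes of primer removal. Of the 36 members with enough counts to test, 17 fell, 0 rose and 19 did not pass. Before adjustment, p was below 0.05 for 19 lower and 0 higher members. The share of all genes at that unadjusted limit was not counted, so this count has no background beside it. DESeq2 and limma voom likewise found 17 that fell and 0 that rose. Among all 14907 genes tested, 13.1% fell and 16.9% rose at the same threshold, an adjusted p below 0.05 in edgeR's quasi-likelihood test. The 17 genes that fell were 1.20-fold to 1.55-fold lower, with a median of 1.35-fold, and 0 of them reached 2-fold. The median log2 fold change (shXBP1 minus shNT) was -0.26 over the 36 members and -0.01 over all genes tested. Of the 35 coding members 33 had a log2 fold change below 0, and the exceptions were Pole4 and Rnaseh1. In 16 members each shXBP1 tumor lay below each shNT tumor, a pattern seen in 13.6% of all genes tested. The authors' deposited table, made with DESeq2, gives an adjusted p below 0.05 for the same 17 members and calls 0 of them at its own limits of adjusted p 0.01 and 2-fold.

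**Figure D1:**
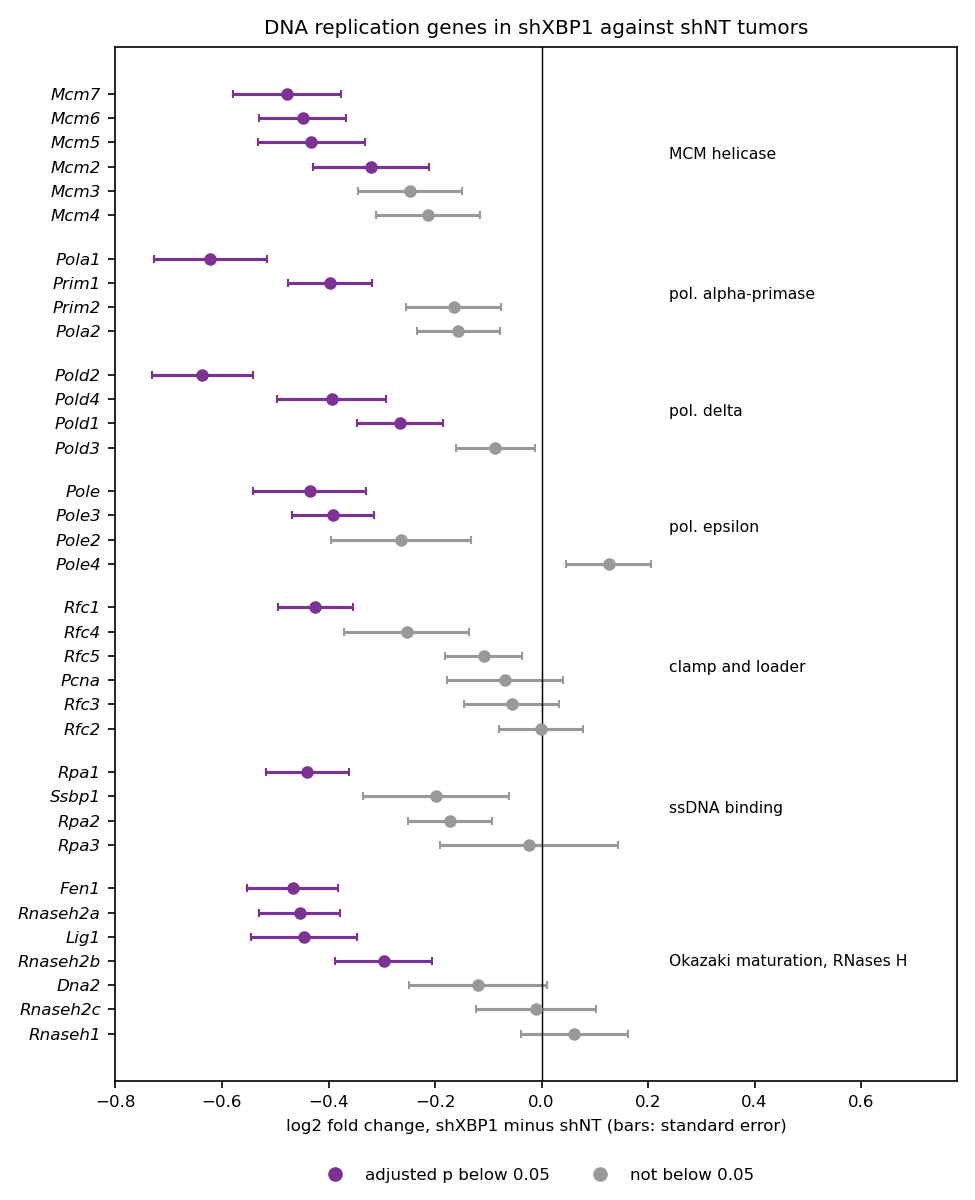
Log2 fold change (x axis, shXBP1 minus shNT) with its standard error for the 35 coding members, grouped by role, from the fit over all 8 tumors. Purple points passed an adjusted p of 0.05; all 17 of them lie left of 0, and Pole4 (0.13) lies farthest to the right.

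Relative to the mean of the shNT tumors, the median member stood at -0.41, -0.25, -0.16 and -0.21 (log2) in shXBP1 tumors, against -0.01, 0.05, 0.01 and -0.07 in shNT tumors. Tumor 1 of the shXBP1 group was the lowest, and 15 of the 35 coding members had their lowest value of all 8 tumors there. Without it 14 members fell, with a median of -0.17. Each shXBP1 tumor lay below each shNT tumor on this measure. In the same tumors 5 of 5 leukocyte markers rose (Ptprc, Cd53, Coro1a, Laptm5 and Lcp1), with a summed level of 806 to 1288 CPM in shXBP1 and 420.4 to 540.3 CPM in shNT tumors. Markers of T cells rose in 6 of 6 cases (68.9 to 224 CPM in shXBP1 and 24.5 to 49.7 CPM in shNT), of macrophages in 5 of 6 (683 to 1261 CPM in shXBP1 and 374 to 554 CPM in shNT). Markers of fibroblasts rose in 4 of 6 cases (1638 to 2122 CPM in shXBP1 and 885 to 1209 CPM in shNT). Dcn carried that separation: without it, a sum made after the values were seen, the other 5 ranged over 634 to 894 CPM in shXBP1 and 619 to 857 CPM in shNT, which overlap, and Col1a1 and Col1a2 did not pass (log2 fold changes of 0.05 and -0.26). Endothelial markers rose in 3 of 5 cases (78.3 to 89.8 CPM in shXBP1 and 36.8 to 43.9 CPM in shNT). Among these lists 0 markers were at 0 in all tumors. The part of these markers in the lower level of replication genes was not tested, since the fit with Ptprc given at the end cannot separate Ptprc from the hairpin. Tumor 4 of the shXBP1 group had the lowest leukocyte sum of its group (806 CPM), where the median member stood at -0.21, between those of tumors 2 and 3. By role, it stood nearest to the shNT mean of its group for the MCM genes (-0.18) and polymerase epsilon (-0.18). The same held narrowly for polymerase delta (-0.225, with tumor 1 at -0.237), and did not hold for the other roles. With shXBP1 tumor 4 left out 17 members fell, with a median of -0.27. Of these, 16 had also fallen with all 8 tumors, while Mcm3 was added and Rnaseh2b was lost. Calls grew among all genes too: of the 14907 tested in the main fit, 2386 were lower and 2872 higher without that tumor, against 1958 and 2517 with all 8.

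**Figure D2:**
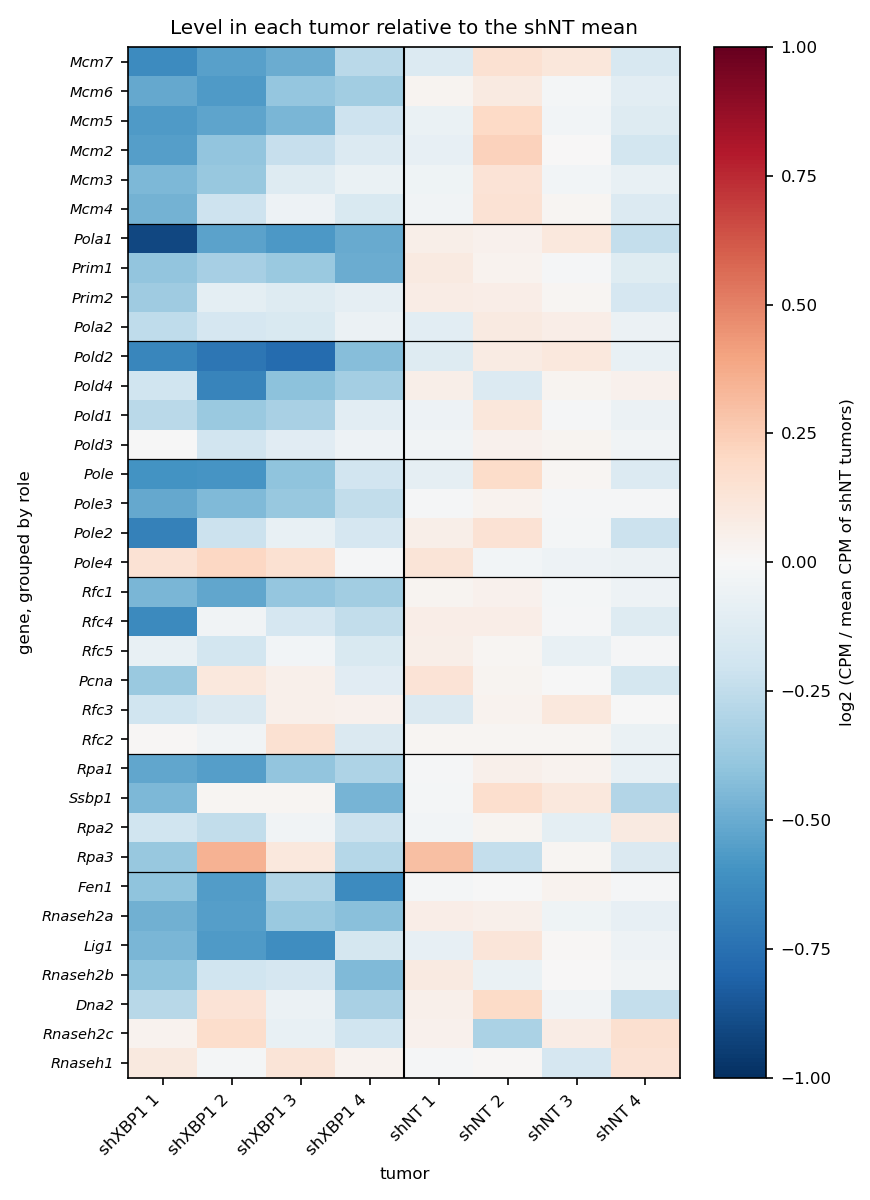
Level of each coding member (rows, grouped by role) in each tumor (columns, shXBP1 left of the line, shNT right) as log2 of CPM over the mean CPM of the shNT tumors. Blue is below that mean and red above; the median member stands between -0.41 and -0.16 in the shXBP1 columns, with Pole4, Rfc2 and Rnaseh1 near 0.

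The MCM helicase subunits stood lower in shXBP1 tumors, with 4 of 6 that fell. Mcm7 (GRCm38; ENSMUSG00000029730, chromosome 5, 138164583 to 138172422, minus strand), part of the catalytic core of the ring, had 144, 153, 159 and 185 CPM in shXBP1 tumors, against 203, 248, 242 and 199.8 CPM in shNT tumors. It was 1.39-fold lower (log2 fold change -0.48, SE 0.10, adjusted p = 0.00407), and the groups did not overlap. Its locus overlaps Cops6 and Ap4m1 on the other strand, and whether counting used strand is not stated in the labels or headers. Mcm6 (ENSMUSG00000026355, chromosome 1, 128331590 to 128359664, minus strand), the most abundant of the 6, had 322, 310.1, 351 and 360.3 CPM in shXBP1 tumors, against 467, 489, 452 and 426 CPM in shNT tumors. All 4 shXBP1 tumors were lower than all shNT tumors, and the difference was 1.36-fold (log2 fold change -0.45, SE 0.08, adjusted p = 0.0016). Mcm5, which forms the gate through which the ring opens together with Mcm2, had 186, 191, 200.2 and 238 CPM in shXBP1 tumors, against 263, 316, 271 and 251 CPM in shNT tumors. Here the shXBP1 tumors were lower without overlap, with tumor 4 close to the shNT range (1.35-fold lower, log2 fold change -0.43, SE 0.10, adjusted p = 0.0065).

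Mcm2, which also binds parental histones, had 121, 135, 151 and 161 CPM in shXBP1 tumors, against 167, 208, 178 and 156 CPM in shNT tumors. Tumor 4 of the shXBP1 group lay above tumor 4 of the shNT group, so the groups overlapped (log2 fold change -0.32, SE 0.11, adjusted p = 0.0424). This call was lost in 6 of the 8 fits without 1 tumor, and held only without shNT tumor 4 (the lowest shNT value) or shXBP1 tumor 4. Mcm3 and Mcm4, the remaining ring subunits, did not pass. Mcm3 had 187, 197, 233 and 245 CPM in shXBP1 tumors, against 248, 281, 251 and 243 CPM in shNT tumors, with a log2 fold change of -0.25 (SE 0.10, adjusted p = 0.0758). Without shXBP1 tumor 4 it passed (-0.31, SE 0.09, adjusted p = 0.0201). Mcm4 stood at 155 ± 18.5 CPM in shXBP1 and 179.8 ± 14.7 CPM in shNT tumors (SD, n = 4 each; log2 fold change -0.21, SE 0.10, adjusted p = 0.12). The median MCM gene stood at -0.53, -0.46, -0.31 and -0.18 (log2, relative to the shNT mean) in shXBP1 tumors, against -0.06, 0.15, -0.01 and -0.13 in shNT tumors.

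**Figure D3:**
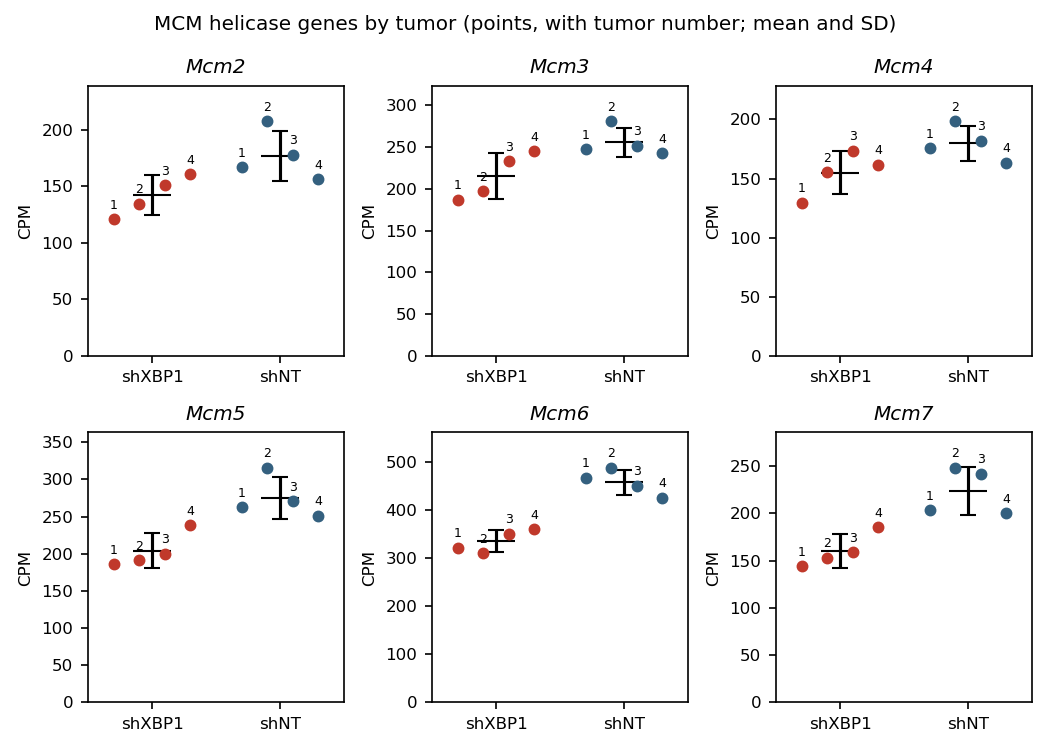
Level of the 6 MCM helicase genes (y axis, CPM from 0) in each tumor, with the tumor number beside each point and the mean and SD of each group in black (n = 4 each). In Mcm5, Mcm6 and Mcm7 all shXBP1 points lie below all shNT points, while in Mcm2, Mcm3 and Mcm4 shXBP1 tumors 3 or 4 reach the shNT range.

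The promoters of 4 MCM genes are shown because they carry the E2F-type motif that is the textbook control element of this gene group. The window of Mcm2, which fell, did not hold this motif, and a window for Mcm4 was not found. Each window runs from 250 bases before to 50 after a RefSeq transcription start in GRCm38.p6, 5′ to 3′ on the strand of the gene. Capitals mark matches to TTTCCCGC, TTTCGCGC, TTTGCCGC or TTTGGCGC on either strand, and neighbouring matches may overlap. Positions count from the annotated start, which is 0. The windows are Mcm3 (chr1:20820263-20820562, minus strand), Mcm5 (chr8:75109259-75109558, plus strand), Mcm6 (chr1:128359656-128359955, minus strand) and the upstream one of the windows of Mcm7 (chr5:138171834-138172133, minus strand).
Mcm3: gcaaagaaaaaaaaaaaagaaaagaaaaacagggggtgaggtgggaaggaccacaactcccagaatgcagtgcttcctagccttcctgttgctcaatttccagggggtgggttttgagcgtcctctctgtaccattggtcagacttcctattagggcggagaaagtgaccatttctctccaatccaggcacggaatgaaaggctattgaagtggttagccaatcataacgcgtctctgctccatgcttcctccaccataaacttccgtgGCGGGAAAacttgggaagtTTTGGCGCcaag
Mcm5: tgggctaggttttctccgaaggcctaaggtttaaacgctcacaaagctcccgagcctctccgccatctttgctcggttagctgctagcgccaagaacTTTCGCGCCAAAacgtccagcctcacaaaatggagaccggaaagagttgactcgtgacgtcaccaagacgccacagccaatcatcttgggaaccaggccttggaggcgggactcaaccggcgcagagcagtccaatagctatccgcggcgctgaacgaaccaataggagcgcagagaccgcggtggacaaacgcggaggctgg
Mcm6: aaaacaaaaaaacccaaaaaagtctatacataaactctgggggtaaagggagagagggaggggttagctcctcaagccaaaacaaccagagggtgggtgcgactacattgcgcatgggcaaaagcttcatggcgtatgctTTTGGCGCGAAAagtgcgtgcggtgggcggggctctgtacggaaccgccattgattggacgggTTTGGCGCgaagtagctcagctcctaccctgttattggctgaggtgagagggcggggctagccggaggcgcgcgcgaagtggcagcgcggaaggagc
Mcm7: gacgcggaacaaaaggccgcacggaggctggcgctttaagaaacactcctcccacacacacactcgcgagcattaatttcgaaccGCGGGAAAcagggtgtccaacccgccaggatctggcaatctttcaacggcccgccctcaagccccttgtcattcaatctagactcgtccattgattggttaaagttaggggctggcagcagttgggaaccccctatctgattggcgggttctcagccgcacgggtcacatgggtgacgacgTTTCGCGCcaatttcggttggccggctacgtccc

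In Mcm5 the matches start at -153 and -149 and overlap on opposite strands, and Mcm6 holds the same arrangement at -110 and -106 with a further match at -47. Mcm7 has matches at -165 and 16, and Mcm3, which did not pass the test, has them at 19 and 38. A promoter window was found for 29 members, and 11 of these (37.9%) held such a match, against 4.46% of 10484 tested genes with a window. The match was present in 6 of 15 members that fell and in 5 of 14 that did not pass. The CCAAT box, searched as CCAAT on both strands, was found in 11 of 15 members that fell and in 5 of 14 that did not pass, against 42.9% of tested genes. Searched in the same way, TTTGAA was found in 3 of 15 and 1 of 14, against 14.6% of tested genes. CACGTG was found in 4 of 15 and 1 of 14, against 11.4%. Differences between members that fell and the others were not tested for any motif. The letters TGACGTGG, a core of the element that XBP1 is known to bind, were found in 0 of 29 member windows and in 0.714% of all 27025 genes with a window. The longer element of ER stress, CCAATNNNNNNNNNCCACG, was likewise found in 0 of 29 and in 0.162% of tested genes. With elements this rare, 0 of 29 cannot set the members apart from other genes. These counts describe letters in the windows only.

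The DNA polymerases held the members with the largest decreases. Pold2 (ENSMUSG00000020471, chromosome 11, 5872180 to 5878292, minus strand), which links the catalytic subunit of polymerase delta to its accessory subunits, had 39.7, 37.7, 36.5 and 46.3 CPM in shXBP1 tumors, against 56.9, 65.9, 66.9 and 59.3 CPM in shNT tumors. It was 1.55-fold lower without overlap (log2 fold change -0.64, SE 0.10, adjusted p = 0.000465). The upstream one of its promoter windows (chr11:5878207-5878506, minus strand) is shown as the window of the gene that fell most; it has no E2F-type match, and the letters CCAAT or their complement occur 3 times.
Pold2: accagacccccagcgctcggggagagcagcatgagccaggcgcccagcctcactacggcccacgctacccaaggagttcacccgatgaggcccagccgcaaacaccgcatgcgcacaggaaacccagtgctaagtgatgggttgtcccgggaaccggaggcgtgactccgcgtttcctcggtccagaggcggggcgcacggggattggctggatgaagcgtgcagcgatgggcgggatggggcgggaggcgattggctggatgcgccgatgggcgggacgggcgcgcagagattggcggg

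Pold4, the smallest subunit of polymerase delta, had 34.7, 25.2, 30.0 and 31.5 CPM in shXBP1 tumors, against 41.5, 36.3, 40.8 and 41.1 CPM in shNT tumors (1.31-fold lower, log2 fold change -0.39, SE 0.10, adjusted p = 0.0121). Pold1, the catalytic subunit, had 86.2, 80.4, 83.3 and 96.6 CPM in shXBP1 tumors, against 101, 112, 103 and 100.3 CPM in shNT tumors (1.20-fold lower, log2 fold change -0.27, SE 0.08, adjusted p = 0.0256). In both genes the shXBP1 tumors lay below the shNT tumors, though Pold1 was called in only 3 of the 8 fits without 1 tumor. It was lost without tumor 2 or 3 of either group or tumor 1 of shXBP1. Pold3, the subunit that binds PCNA, stood at 52.9 ± 2.91 CPM in shXBP1 and 56.2 ± 1.58 CPM in shNT tumors (SD, n = 4 each) and did not pass (log2 fold change -0.09, SE 0.07, adjusted p = 0.407).

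In the polymerase alpha-primase complex, which starts each new strand, the catalytic subunits of both activities fell and the other subunits did not pass. Pola1 (ENSMUSG00000006678, chromosome X, 93304767 to 93632155, minus strand), the polymerase subunit, had 84.2, 109, 106 and 111 CPM in shXBP1 tumors, against 165, 163, 170.5 and 134 CPM in shNT tumors. The lowest value, in shXBP1 tumor 1, lay far below the lowest shNT value, and the difference was 1.54-fold (log2 fold change -0.62, SE 0.11, adjusted p = 0.00104). Prim1, the catalytic subunit of primase, had 45.8, 47.9, 46.4 and 42.5 CPM in shXBP1 tumors, against 64.0, 61.5, 59.6 and 55.4 CPM in shNT tumors. These values did not overlap and varied little within shXBP1 (1.32-fold lower, log2 fold change -0.40, SE 0.08, adjusted p = 0.0026). Prim2, the regulatory primase subunit, stood at 58.2 ± 4.93 CPM in shXBP1 and 65.3 ± 5.02 CPM in shNT tumors (log2 fold change -0.16, SE 0.09, adjusted p = 0.187), and Pola2, the regulatory polymerase subunit, at 98.2 ± 5.41 CPM in shXBP1 and 109 ± 7.23 CPM in shNT tumors (log2 fold change -0.16, SE 0.08, adjusted p = 0.15; SD, n = 4 each).

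In polymerase epsilon, which extends the leading strand, 2 of 4 subunits fell. Pole, its catalytic subunit, had 69.0, 69.1, 78.7 and 91.4 CPM in shXBP1 tumors, against 97.8, 118, 106 and 94.9 CPM in shNT tumors (1.35-fold lower, log2 fold change -0.44, SE 0.11, adjusted p = 0.00862). Pole3, a histone-fold subunit, had 62.2, 65.6, 68.2 and 74.8 CPM in shXBP1 tumors, against 88.3, 91.3, 87.9 and 88.0 CPM in shNT tumors (1.31-fold lower, log2 fold change -0.39, SE 0.08, adjusted p = 0.00256). Groups did not overlap in either gene, and shXBP1 tumor 4 was the nearest to the shNT range in both. Pole2, the subunit that joins the polymerase to the helicase, overlapped between groups (21.4 ± 3.67 CPM in shXBP1 and 25.8 ± 2.66 CPM in shNT tumors, SD, n = 4 each; log2 fold change -0.26, SE 0.13, adjusted p = 0.151). Pole4, the histone-fold partner of Pole3, had 73.4, 76.7, 74.1 and 66.0 CPM in shXBP1 tumors, against 72.8, 65.1, 64.3 and 63.7 CPM in shNT tumors, one of 2 coding members with a log2 fold change above 0 (log2 fold change 0.13, SE 0.08, adjusted p = 0.261).

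The sliding clamp and its loader gave 1 decrease among 6 genes. Rfc1 (ENSMUSG00000029191, chromosome 5, 65261850 to 65335670, minus strand), the large subunit of the loader, had 123, 117, 128 and 132 CPM in shXBP1 tumors, against 171, 173, 165 and 162 CPM in shNT tumors. Its groups were well separated (1.34-fold lower, log2 fold change -0.42, SE 0.07, adjusted p = 0.00097). The small subunits Rfc2, Rfc3, Rfc4 and Rfc5, which form the ATPase ring with Rfc1, did not pass. Rfc2 stood at 121 ± 10.3 CPM in shXBP1 and 121 ± 3.59 CPM in shNT tumors (SD, n = 4 each), with a log2 fold change of -0.001 (interval of 1.96 SE either side, -0.15 to 0.15). The locus of Rfc2 overlaps Lat2 on the other strand, and the part of Lat2 reads in this value was not tested. Rfc4 stood at 32.4 ± 5.46 CPM in shXBP1 and 38.7 ± 2.41 CPM in shNT tumors, with shXBP1 tumor 1 the lowest at 24.9 CPM (log2 fold change -0.25, SE 0.12, adjusted p = 0.124). Rfc5 and Rfc3 had log2 fold changes of -0.11 and -0.06 (adjusted p = 0.283 and 0.672). The promoter of Rfc3 (chr5:151651159-151651458, minus strand) is shown because it carries E2F-type matches, at -10 and 0, in a gene whose RNA did not pass the test.
Rfc3: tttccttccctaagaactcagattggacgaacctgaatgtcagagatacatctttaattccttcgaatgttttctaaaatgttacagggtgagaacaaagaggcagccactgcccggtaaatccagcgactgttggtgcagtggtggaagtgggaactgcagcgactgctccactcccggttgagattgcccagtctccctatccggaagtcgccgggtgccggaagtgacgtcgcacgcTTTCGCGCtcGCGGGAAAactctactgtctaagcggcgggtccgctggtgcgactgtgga

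Pcna (ENSMUSG00000027342, chromosome 2, 132249162 to 132253314, minus strand), the clamp itself and a common marker of proliferating cells, had 296, 413, 399 and 356 CPM in shXBP1 tumors, against 421, 391, 383 and 339.8 CPM in shNT tumors. Only shXBP1 tumor 1 lay below the shNT range, and shXBP1 tumors 2 and 3 lay above 3 of the 4 shNT tumors. Its log2 fold change was -0.07 (SE 0.11, adjusted p = 0.673; interval of 1.96 SE either side, -0.28 to 0.15). Reads of Pcna can be shared with its processed pseudogene Pcna-ps2, also a member by annotation, which held 267, 67, 31 and 87 counts in shXBP1 tumors, against 113, 44, 49 and 22 counts in shNT tumors. The pseudogene varied widely within both groups and did not pass (log2 fold change 0.92, SE 0.72, adjusted p = 0.377), and it was highest in the tumor of each group numbered 1. The unnamed locus, which the deposited annotation matches to Rpa3, held 5, 4, 4 and 0 counts in shXBP1 tumors, against 18, 0, 5 and 9 counts in shNT tumors, and lay below the filter.

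Among the proteins that coat single-stranded DNA, Rpa1 fell and 3 others did not pass. Rpa1 (ENSMUSG00000000751, chromosome 11, 75298166 to 75348324, minus strand), the large subunit with most of the DNA-binding surface, had 145, 143, 159 and 168 CPM in shXBP1 tumors, against 207, 216, 214 and 198 CPM in shNT tumors. The groups lay apart by more than their own spread (1.36-fold lower, log2 fold change -0.44, SE 0.08, adjusted p = 0.00134). Rpa2, the subunit phosphorylated under replication stress, stood at 60.9 ± 4.20 CPM in shXBP1 and 68.6 ± 3.70 CPM in shNT tumors (log2 fold change -0.17, SE 0.08, adjusted p = 0.124), and Rpa3, the smallest, at 28.0 ± 6.65 CPM in shXBP1 and 28.5 ± 4.83 CPM in shNT tumors (log2 fold change -0.02, SE 0.17, adjusted p = 0.93; SD, n = 4 each). Ssbp1, which serves mitochondrial and not nuclear DNA, stood at 41.6 ± 7.79 CPM in shXBP1 and 47.7 ± 6.48 CPM in shNT tumors (SD, n = 4 each; log2 fold change -0.20, SE 0.14, adjusted p = 0.305).

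Of 7 genes for primer removal and strand joining, 4 fell. Fen1 (ENSMUSG00000024742, chromosome 19, 10199132 to 10204169, minus strand), the flap endonuclease, had 58.9, 52.9, 63.3 and 50.5 CPM in shXBP1 tumors, against 77.1, 77.7, 79.7 and 77.5 CPM in shNT tumors. The shNT values lay close together and well above all shXBP1 values (1.38-fold lower, log2 fold change -0.47, SE 0.08, adjusted p = 0.00154), though the locus overlaps Tmem258 on the other strand. Lig1, the ligase that seals Okazaki fragments, had 107, 99.8, 95.8 and 130.3 CPM in shXBP1 tumors, against 139, 160.2, 148 and 142 CPM in shNT tumors, without overlap but with shXBP1 tumor 4 above the other 3 (1.36-fold lower, log2 fold change -0.45, SE 0.10, adjusted p = 0.00529). Rnaseh2a, the catalytic subunit of ribonuclease H2, had 44.1, 42.2, 47.7 and 46.2 CPM in shXBP1 tumors, against 64.7, 63.9, 59.9 and 58.4 CPM in shNT tumors. Its groups did not overlap either (1.37-fold lower, log2 fold change -0.45, SE 0.08, adjusted p = 0.00102). Rnaseh2b, a scaffold subunit, had 27.1, 31.2, 31.9 and 26.3 CPM in shXBP1 tumors, against 38.1, 34.2, 35.8 and 35.0 CPM in shNT tumors (1.23-fold lower, log2 fold change -0.30, SE 0.09, adjusted p = 0.027). Leaving out tumor 1 of either group, tumor 3 of shNT or tumor 4 of shXBP1 ended this call. Rnaseh2c, the other scaffold subunit, stood at 54.4 ± 5.94 CPM in shXBP1 and 54.8 ± 7.49 CPM in shNT tumors (log2 fold change -0.01, SE 0.11, adjusted p = 0.956). Dna2, a nuclease and helicase, and Rnaseh1, which also acts in mitochondria, had log2 fold changes of -0.12 and 0.06 and did not pass.

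Whether subunits of a complex differed unequally was tested within tumors, as the log2 ratio of the largest or catalytic subunit to each partner, in 17 pairs chosen after the values were seen. The two-sided exact permutation test over 4 against 4 tumors cannot go below p = 0.0286, and 7 pairs reached that value, with an adjusted p of 0.0694 over the 17, so that 0 passed 0.05 after adjustment. The log2 ratio of Rfc1 to Rfc2 was 0.05 ± 0.15 in shXBP1 and 0.48 ± 0.03 in shNT tumors (a difference of -0.42), and the ratios of Rfc1 to Rfc3 and to Rfc5 differed by -0.37 and -0.32. Pola1 relative to Prim2 was 0.81 ± 0.06 in shXBP1 and 1.27 ± 0.07 in shNT tumors, and relative to Pola2 0.06 ± 0.13 in shXBP1 and 0.53 ± 0.15 in shNT tumors. In polymerase delta the order was the other way: Pold1 relative to Pold2 was 1.12 ± 0.06 in shXBP1 and 0.74 ± 0.08 in shNT tumors, higher in all 4 shXBP1 tumors, while relative to Pold3 it was 0.71 ± 0.09 in shXBP1 and 0.89 ± 0.05 in shNT tumors (SD, n = 4 each throughout). In each of these 7 pairs the groups did not overlap. The ratio of Pole to Pole4 differed by -0.57 (exact p = 0.0571, adjusted 0.0971), and that of Rnaseh2a to Rnaseh2c by -0.45 (exact p = 0.0571, adjusted 0.0971).

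**Figure D4:**
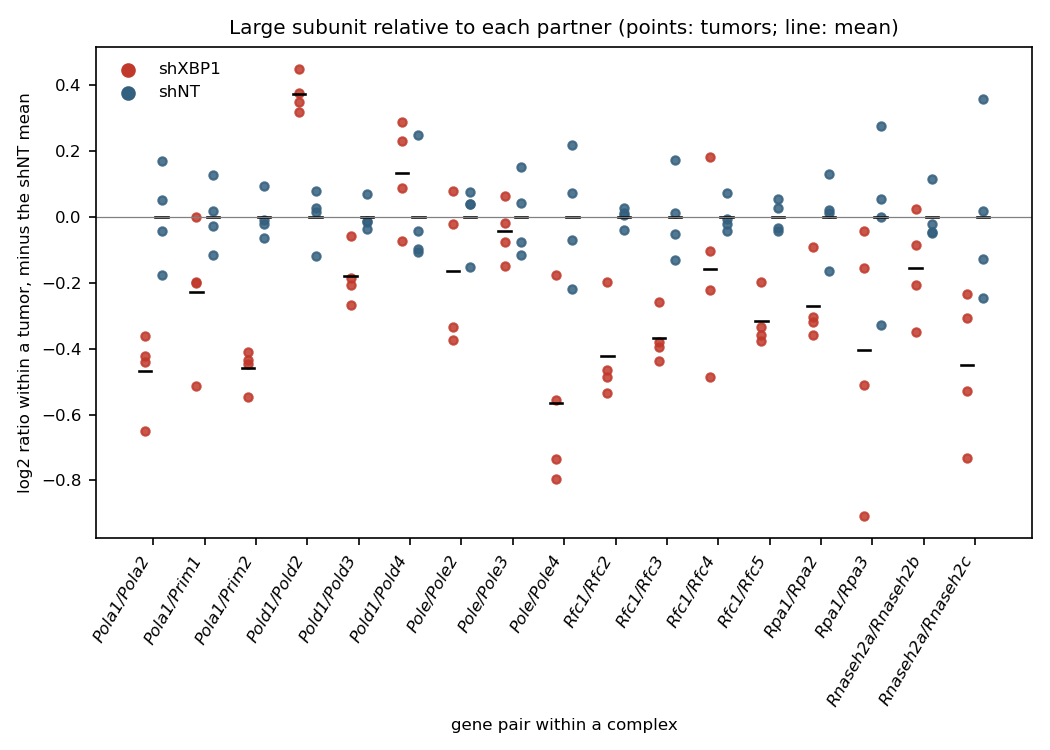
Log2 ratio of the large or catalytic subunit to each partner within a tumor (y axis, minus the mean of the shNT tumors) for 17 gene pairs (x axis); points are tumors, shXBP1 in red left of shNT in blue, and black lines are group means. For Rfc1 over Rfc2, Rfc3 and Rfc5 and for Pola1 over Pola2 and Prim2 all red points lie below the blue ones, and for Pold1 over Pold2 above them.

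Levels of different genes were compared per length, on the FPKM scale of the deposited table. Pcna was the highest member, at 213 ± 29.9 FPKM in shXBP1 and 223 ± 21.9 FPKM in shNT tumors, followed by Mcm6 at 93.8 ± 8.35 FPKM in shXBP1 and 129 ± 7.61 FPKM in shNT tumors (SD, n = 4 each). The 6 MCM genes, whose products enter the ring in equal number, spanned 37.4 (Mcm2) to 93.8 FPKM (Mcm6) on average in shXBP1 and 44.3 (Mcm4) to 129 FPKM (Mcm6) in shNT tumors. Next in the order, Mcm3 stood at 63.2 ± 10.7 FPKM in shXBP1 and 74.6 ± 7.45 FPKM in shNT tumors. Mcm5 stood at 55.6 ± 9.10 FPKM in shXBP1 and 73.7 ± 9.89 FPKM in shNT tumors. The difference between these genes within a tumor was not tested. The catalytic subunits Pola1 and Pole lay far below the ring: Pola1 stood at 17.0 ± 2.51 FPKM in shXBP1 and 26.1 ± 3.04 FPKM in shNT tumors, and Pole at 9.61 ± 1.74 FPKM in shXBP1 and 13.0 ± 1.73 FPKM in shNT tumors. Dna2 was the lowest, at 3.88 ± 0.473 FPKM in shXBP1 and 4.25 ± 0.611 FPKM in shNT tumors (SD, n = 4 each). The median coding member had 27.6 FPKM in shXBP1 and 33.6 FPKM in shNT tumors.

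Members share annotation beyond replication, since the same polymerases, clamp and ligase fill repaired gaps: 17 of the 37 are also annotated to mismatch repair, 20 to nucleotide excision repair, 12 to base excision repair, 9 to homologous recombination and 8 to the cell cycle in the deposited table. The 36 members placed in the genome lie on 14 chromosomes, and 17 overlap another annotated gene, 10 of them among those that fell. On the other strand, Rfc4 overlaps Eif4a2, Rnaseh2a overlaps Prdx2 and Rnaseh2c overlaps Kat5, among others. Since the strand setting is not stated, reads in an overlap may come from either gene, and their part in levels and ratios was not tested.

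Genes that act with this machinery but carry no such annotation were read from 8 lists with 92 genes, all tested, of which 38 (41.3%) fell and 2 rose, against 13.1% and 16.9% of all genes. Among the 9 genes of origin licensing 5 fell and 4 did not pass. Cdc6, which loads the MCM ring, stood at 28.5 ± 2.50 CPM in shXBP1 and 39.6 ± 2.75 CPM in shNT tumors (SD, n = 4 each; log2 fold change -0.47, SE 0.09, adjusted p = 0.00236), its partner Cdt1 was 1.35-fold lower and Orc2, of the origin recognition complex, 1.23-fold lower. The count turned on single tumors: 1 to 4 genes fell when a tumor was left out, with 1 without tumor 2 of shNT, 2 without tumor 1 of either group or tumor 3 of shXBP1, and 3 without tumor 4 of either group or tumor 3 of shNT. Of 13 genes for activation of the helicase and origin firing 8 fell. Topbp1, which recruits firing factors, stood at 172 ± 15.4 CPM in shXBP1 and 239 ± 21.9 CPM in shNT tumors (SD, n = 4 each; log2 fold change -0.48, SE 0.09, adjusted p = 0.00211), Recql4 was 1.49-fold lower and Gins1, of the GINS complex that joins the MCM ring, 1.35-fold lower. The count was 5 without shNT tumor 3 or shXBP1 tumor 1, and 10 without shXBP1 tumor 4. Leaving out shXBP1 tumor 4 also raised the number lower among all genes tested, from 1958 to 2386, which applies to the lists below as well. Cdc45, the other partner of the active helicase, stood at 80.8 ± 11.8 CPM in shXBP1 and 94.2 ± 4.64 CPM in shNT tumors and did not pass (chosen after its value was seen).

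Of 9 histone chaperones that rebuild chromatin behind the fork 6 fell, among them Asf1b (1.40-fold lower, log2 fold change -0.49, SE 0.09, adjusted p = 0.0014), Ssrp1, of the FACT complex (1.35-fold lower), and Nasp, a carrier of free histones (1.33-fold lower). The fork protection and checkpoint list had 3 of 8 that fell, Wdhd1, Timeless and Tipin, by 1.24, 1.28 and 1.22-fold. That list gave 0 without shNT tumor 2 or shXBP1 tumor 1 or 2, and 1 without shNT tumor 1. Of 5 alternative clamp loader genes Atad5, which unloads PCNA, and Dscc1 fell (1.36-fold and 1.31-fold lower), and Chtf8 had a log2 fold change of -0.19 (adjusted p = 0.0584). There the count was 1 without shNT tumor 1 or 3 or shXBP1 tumor 1, and 4 without shXBP1 tumor 4.

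Genes of deoxynucleotide supply were mixed, with 5 of 12 that fell, 1 that rose and 6 that did not pass. Rrm1, the large subunit of ribonucleotide reductase, stood at 215 ± 18.3 CPM in shXBP1 and 296 ± 18.6 CPM in shNT tumors (log2 fold change -0.46, SE 0.09, adjusted p = 0.00172), and Dut, which clears dUTP, was 1.30-fold lower. Rrm2, the small subunit, stood at 143 ± 5.02 CPM in shXBP1 and 149 ± 6.32 CPM in shNT tumors (adjusted p = 0.588; chosen after its value was seen). The gene that rose was Samhd1, a hydrolase that degrades deoxynucleotides and is known for its activity in myeloid cells, with 868, 768, 729.6 and 573 CPM in shXBP1 tumors, against 356, 339.9, 398 and 395 CPM in shNT tumors (1.97-fold higher, log2 fold change 0.98, SE 0.12, adjusted p = 0.000119). Leukocyte markers rose in the same tumors. In the edgeR fit with Ptprc given at the end, Samhd1 stood at 0.39 (SE 0.21, adjusted p = 0.388) and its call was lost. The call was lost in the edgeR fit with Mki67 too (0.58, SE 0.20, adjusted p = 0.208). Few genes kept a call there, with 0.899% of all genes higher with Ptprc and 0.671% with Mki67. The part of leukocytes in the difference of Samhd1 was not tested, since these fits cannot separate either covariate from the hairpin.

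Regulators of the G1/S transition fell in 2 of 22 cases, 9.09% against the 13.1% of all genes, and 1 rose. Ccnd1, cyclin D1, was 1.27-fold lower (log2 fold change -0.34, SE 0.08, adjusted p = 0.00891), and E2f8, a repressor of the E2F family, 1.33-fold lower (log2 fold change -0.42, SE 0.14, adjusted p = 0.0415). Cdkn1a, the inhibitor p21 of cyclin-dependent kinases, had 149.7, 133, 123 and 130.4 CPM in shXBP1 tumors, against 97.4, 77.8, 94.2 and 81.6 CPM in shNT tumors, with no overlap (1.53-fold higher, log2 fold change 0.61, SE 0.09, adjusted p = 0.00059). E2f1 stood at 72.3 ± 7.04 CPM in shXBP1 and 79.1 ± 5.88 CPM in shNT tumors and did not pass (adjusted p = 0.306; chosen after its value was seen). The number that fell was 1 without tumor 2 or 3 of either group, tumor 1 of shXBP1 or tumor 4 of shNT, and 4 without tumor 4 of shXBP1. Of 14 genes for mitosis and proliferation 7 fell. The number was 5 without tumor 2 or 3 of shNT or tumor 1 or 3 of shXBP1, and 11 without shXBP1 tumor 4. Kif11, a spindle motor, was 1.50-fold lower (log2 fold change -0.58, SE 0.08, adjusted p = 0.000353), and Bub1, of the spindle checkpoint, 1.36-fold lower. Top2a, which untangles replicated DNA, had 469, 582, 621 and 613 CPM in shXBP1 tumors, against 774, 771, 799 and 691 CPM in shNT tumors (log2 fold change -0.41, SE 0.10, adjusted p = 0.00849). Mki67, the proliferation antigen Ki-67, had 483, 564, 572 and 586 CPM in shXBP1 tumors, against 732, 689, 631 and 703 CPM in shNT tumors (log2 fold change -0.32, SE 0.09, adjusted p = 0.0153), and shXBP1 tumor 1 was the lowest of the 8 in both genes, as it was for the median replication gene.

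**Figure D5:**
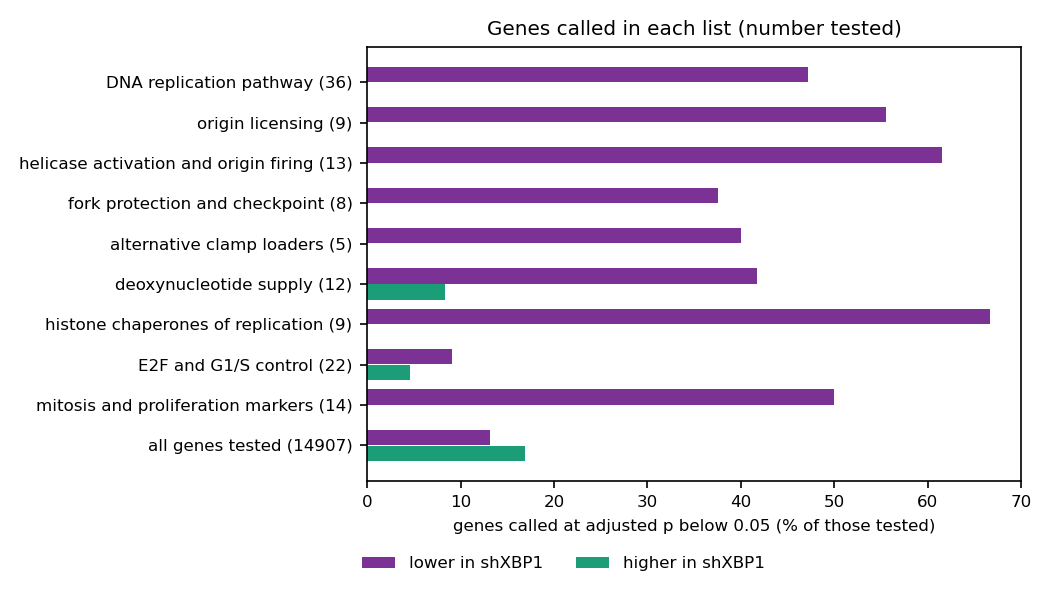
Share of the tested genes of each list (y axis, number tested in brackets) that passed an adjusted p of 0.05 (x axis, %), lower in shXBP1 in purple and higher in green. Shares that fell lie above the 13.1% of all genes tested in the replication pathway (47.2%) and in all neighbouring lists except E2F and G1/S control (9.09%).

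With the log2 CPM of Ptprc, the pan-leukocyte gene, as a covariate in edgeR, 0 of 36 members passed in either direction, and the background itself was 0.711% lower and 0.899% higher, and standard errors were 2.26 times as large at the median of all genes. The median log2 fold change of the members was then -0.16, and 6 members were lower and 0 higher at an unadjusted p under 0.05. Of all 14907 genes tested, 1181 were lower and 1211 higher at that unadjusted p. Of the 6 members, 4 had fallen without the covariate. Fen1 stood at -0.67 (SE 0.20) with the covariate, Rnaseh2b at -0.62 (SE 0.20), Pola1 at -0.56 (SE 0.24) and Prim1 at -0.55 (SE 0.18), and their calls were lost (adjusted p = 0.108, 0.144, 0.266 and 0.161). The remaining pair had been near 0 without it: Rpa3 stood at -0.78 (SE 0.31) with the covariate and -0.02 without, and Rnaseh2c at -0.56 (SE 0.20) with it and -0.01 without. Among the genes that had fallen, the sign turned in 5: Mcm5 stood at 0.05 (SE 0.18), Pole at 0.07 (SE 0.19), Lig1 at 0.07 (SE 0.17), Pold1 at 0.08 (SE 0.16) and Mcm2 at 0.09 (SE 0.21). By role, the median log2 fold change was nearer 0 with this covariate for the MCM genes (-0.01 with it, -0.38 without), polymerase delta (-0.12 with it, -0.33 without) and polymerase epsilon (-0.11 with it, -0.33 without). It was farther below 0 for polymerase alpha-primase (-0.32 with it, -0.28 without), the clamp and its loader (-0.22 with it, -0.09 without), single-strand binding (-0.41 with it, -0.19 without) and primer removal and joining (-0.36 with it, -0.30 without). With the log2 CPM of Mki67 as a covariate 0 members passed too, against a background of 0.241% lower and 0.671% higher. Standard errors were then 2.01 times as large at the median of all genes, and all 17 members that had fallen kept their sign. The median log2 fold change of the members was then -0.15, with 7 members lower and 0 higher at an unadjusted p under 0.05. All 7 had fallen without the Mki67 covariate, and Pold2 stood at -0.70 (SE 0.19). Of all 14907 genes tested, 845 were lower and 1410 higher at that unadjusted p.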

How the data were processed

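RNA of 8 MC38-OVA tumors, 4 shXBP1 and 4 shNT, was sequenced, and replicates are tumors by the labels. The labels do not tie each tumor to a mouse of its own, and p-values reflect only the spread between these tumors. One label gives the strain as C57BL/5J. Per the file headers, the authors deposited whole-number counts per gene, FPKM values (scaled to gene length and depth) and a DESeq2 comparison. The build GRCm38 comes from the submitters' processing notes. The aligner, counter and strand setting are not stated there. The authors' fold changes, log2 values and adjusted p-values were copied as deposited.

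Counts were tested with edgeR 4.0.16 (R 4.3.3) by the quasi-likelihood test, shXBP1 against shNT, with TMM scaling, filterByExpr and robust dispersions, on 14907 of 25766 entries, with Benjamini-Hochberg adjustment over all of them and a threshold of 0.05. TMM factors were 0.980 to 1.04. CPM values are relative to the scaled library, per-tumor ratios are log2(CPM over the shNT mean), and subunit ratios are log2 of CPM ratios tested by two-sided exact permutation. Tumors of a group differed by more than counting noise, with a chi-square over degrees of freedom of at least 16.5. Positions come from GENCODE M21 (GRCm38) and promoters from RefSeq (GRCm38.p6). The rule on named genes took every member; in neighbouring lists it took the 3 smallest p-values and 2 proliferation genes, others being marked as chosen later. The script was tested on simulated data. The members and lists were chosen with earlier results of these data known. Alternatives were other tools (DESeq2 1.42.0, limma 3.58.1), scalings, filters, covariates, a replicate block and leaving out each tumor. Intervals of 1.96 SE come from the fit and cover the spread between tumors, while the floor of 3 counts covers counting error only.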

Additional observations from a re-analysis of the deposited data

Results flagged for a closer look

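A single tumor stood apart from the other 3 of its group, by a gap above Dixon's 95% critical value, in 14 of 258 groups of gene and condition, and in 5 of 74 among the replication genes. Chance flags about 1 in 20 groups, and no pattern is read from these.

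Prim2, the regulatory primase subunit, was low in shXBP1 tumor 1 (50.9 CPM, with the other 3 at 59.7 to 61.2 CPM). Pold4 was low in shNT tumor 2 (36.3 CPM, with the other 3 at 40.8 to 41.5 CPM), where Pole3 was high (91.2 CPM, with the other 3 at 87.9 to 88.3 CPM). Pole4 was high in shNT tumor 1 (72.8 CPM, with the other 3 at 63.7 to 65.1 CPM), and Rfc2 was low in shNT tumor 4 (115 CPM, with the other 3 at 122 to 123 CPM). For the genes that fell, Pold4 and Pole3, the tumor that stood apart remained above every shXBP1 tumor.

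Among neighbouring genes, the fork protection gene Tipin was high in shXBP1 tumor 3 (78.8 CPM, with the other 3 at 62.3 to 62.8 CPM), and Atad5 was low in shNT tumor 4 (34.4 CPM, with the other 3 at 41.7 to 42.2 CPM). The chromatin assembly gene Chaf1b was high in shNT tumor 2 (55.2 CPM, with the other 3 at 44.5 to 46.0 CPM), as was the kinase gene Cdk2 (66.0 CPM, with the other 3 at 53.5 to 55.6 CPM). Rbbp4 was low in shXBP1 tumor 1 (290.5 CPM, with the other 3 at 320.5 to 327 CPM), as was Cdk1, the mitotic kinase (92.6 CPM, with the other 3 at 122 to 127 CPM). Rbl2 was high in shXBP1 tumor 4 (64.2 CPM, with the other 3 at 49.5 to 49.9 CPM), Cdk6 low in shXBP1 tumor 2 (238 CPM, with the other 3 at 252 to 254 CPM), and Ccnb1, cyclin B1, low in shNT tumor 3 (106 CPM, with the other 3 at 121 to 122 CPM).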

How the results depend on the processing

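All 17 calls held under DESeq2, limma voom, median-of-ratios scaling, no filter and no robust estimation. With upper-quartile scaling 16 fell (without Mcm2), with a filter of 10 CPM in 4 libraries 15 (without Mcm2 and Rnaseh2b), and at an adjusted p of 0.01, 13. Leaving out 1 tumor at a time gave 14 to 17 members that fell, a median log2 fold change of -0.29 to -0.17 (lowest in size without shXBP1 tumor 1), 1303 to 2401 genes lower (fewest without shNT tumor 3) and 2058 to 2904 higher, against 1958 and 2517 of all genes in the main analysis. The labels do not say whether the tumor numbers pair the samples. Same-numbered tumors had correlations of deviations from -0.14 to -0.02, and other pairs from -0.09 to 0.17. Deviations from the mean of 4 tumors cannot exclude pairing. With the tumor number as a replicate block 1304 genes were lower, and 14 members fell, without Mcm2, Pold1 and Rnaseh2b; the block gave 2 genes of origin licensing, 5 of firing, 0 of fork protection and 1 of the alternative clamp loaders. Origin licensing gave 3 with upper-quartile scaling, with no filter and with the 10 CPM filter, and G1/S control 1 with the 10 CPM filter. With Ptprc as a covariate 0 members fell (median -0.16), 106 genes were lower and 134 higher, and among the 17 the sign turned, with no call, for Mcm5 (0.053), Mcm2 (0.092), Pold1 (0.082), Pole (0.071) and Lig1 (0.065). With Mki67 as a covariate 0 members fell (median -0.15), 36 genes were lower and 100 higher. Either covariate also left 0 lower and 0 higher in every neighbouring list. The covariates differ between the groups, so the fit cannot separate them from the hairpin. The cause of the other changes was not tested. Counts per tumor went down to 445 among coding members, while Pcna-ps2 had as few as 22 and the unnamed locus 0.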
